A study of Drosophila melanogaster with 84 samples.

Results

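The 3 yolk protein genes of Drosophila melanogaster, Yp1, Yp2 and Yp3, were followed in abdominal fat body. They were chosen by symbol, as the 3 rows named Yp1, Yp2 and Yp3 of a table of 23932 features, and all 3 passed the filter on low values in every comparison. Together they held from 1.01% to 16.9% of all TPM (a level corrected for transcript length and scaled to the same total in each library). They were lower at 18°C than at 25°C in each of the 2 replicate series. Their differences between diets pointed in opposite directions in the 2 series, of which only those within replicate 2 passed the test. For Yp1 the difference between genotypes also differed by replicate number, although no gap between the replicates of Clk-Jrk itself passed.

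Yolk proteins are the main stores of protein that a female fly packs into her eggs. They are made by the female fat body and, within the ovary, by the follicle cells, are secreted, and are taken up by the growing oocyte through the receptor Yolkless, the product of yl. In Drosophila they are related to lipases rather than to the vitellogenins of most other egg-laying animals, and they are sulfated on tyrosine. The female form of the transcription factor Doublesex (dsx) turns their genes on in the fat body, and ecdysone, juvenile hormone and feeding are known to set how strongly they are transcribed.

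The 84 libraries came from the abdominal fat body of mated females, about 10 flies per library. By the labels, the flies were about 3 days old when they were placed for 5 days in 12 hours of light and 12 hours of dark. The study describes the flies of its temperature comparison as raised at 25°C, aged about 3 days and then entrained for 3 days. At about 7 days old they were moved to 18°C or kept at 25°C. Wild-type flies were w1118, a stock that the study's methods name Iso31. They ate 15% sucrose-yeast food (15% SY) at 18°C (24 libraries), 15% SY at 25°C (24 libraries) or 5% SY at 25°C (24 libraries). The mutant was Clk-Jrk, a dominant allele of the clock gene Clk backcrossed 7 times to w1118, held on 15% SY at 25°C (12 libraries). Wild-type libraries were taken every 2 hours from ZT2 to ZT24, where ZT is time in hours from lights on, and Clk-Jrk libraries every 4 hours from ZT2 to ZT22, with replicates 1 and 2 at each time point. Titles give the diets as high and low calorie, which were read as 15% and 5% SY from the protocol. Clk-Jrk is a point mutation, so the level of Clk, with a median of 3.92 TPM in the mutant and 4.50 TPM in wild type at 25°C, does not check these labels.

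Yp1 (FBgn0004045) and Yp2 (FBgn0005391) are neighbours on chromosome X that point away from each other. In the BDGP6 annotation of Ensembl release 115, Yp2 lies on the minus strand at chrX:10050951-10052636 and Yp1 on the plus strand at chrX:10053811-10055498, each with 2 exons. The 1174 bases between them hold no other annotated gene. Yp3 (FBgn0004047) lies apart, on the plus strand at chrX:13759546-13761547, with 3 exons. The exons of Yp2 and Yp3 overlapped no other annotated gene. The antisense gene asRNA:CR45601, on the minus strand at chrX:10054235-10055109, lies wholly within the exons of Yp1, all 875 of its exon bases being shared. Reads were assigned without regard to strand, so within these shared bases, which are 875 of the 1611 exon bases of Yp1, reads of the 2 genes cannot be told apart. The table listed asRNA:CR45601 at a median of 4073 TPM at 18°C, 8017 TPM on 15% SY at 25°C, 6274 TPM on 5% SY and 13728 TPM in Clk-Jrk, and at 0 in 1 library on 5% SY. Its level was between 0 and 0.566 times that of Yp1, so the Yp1 values are uncertain in this respect, while those of Yp2 and Yp3 are free of this overlap.

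The libraries marked replicate 1 and replicate 2 stood apart in wild-type flies on 15% SY. At every one of the 12 time points, and for all 3 genes, replicate 2 was above replicate 1 at both temperatures. The labels do not say what the replicate number marks, nor that the replicates came from separate cultures, so the p-values below measure the spread between these libraries, which may be technical. For this reason, the comparisons of the 3 genes are given over both series and within each.

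Tissues other than fat contributed RNA as well. The 10 fat body markers summed to between 5138 and 12288 TPM and were all present at a median above 1 TPM in each group. Chorion and vitelline membrane genes, the 19 markers of ovarian follicle cells, summed to between 4.47 and 15039 TPM, although ovaries had been removed. All 19 exceeded 1 TPM in at least 1 library of every group. The median of this sum was 91.7 TPM at 18°C, 1856 TPM on 15% SY at 25°C, 549 TPM on 5% SY and 870 TPM in Clk-Jrk. Follicle cells transcribe the yolk protein genes themselves, and in bulk tissue fewer cells of a type cannot be told apart from less RNA per cell. The 11 matched male markers summed to at most 19.4 TPM in any library.

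Yolk protein transcripts were among the most abundant of the tissue. All 3 genes were among the 10 most abundant features in 73 of the 84 libraries, and Yp1 was the most abundant feature of all in 25 libraries, which included all 12 of Clk-Jrk. The lowest place of any of them was 50th, held by Yp3 in a library at 18°C. Yp1 was the highest of the 3 in 81 libraries, and the order Yp1, Yp2, Yp3 held in 65.

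At 18°C, Yp1 was between 4304 and 18985 TPM in replicate 1, with a median of 6461, and between 19575 and 37740 TPM in replicate 2, with a median of 33040. On 15% SY at 25°C, it was between 17322 and 31923 TPM in replicate 1, with a median of 20884, and between 31942 and 60794 TPM in replicate 2, with a median of 48994. At each temperature, the highest library of replicate 1 was below the lowest of replicate 2. How many other features separated likewise was not counted. On 5% SY, Yp1 was between 21491 and 39550 TPM in replicate 1 and between 24412 and 41537 TPM in replicate 2, with medians of 28589 and 36290. In Clk-Jrk, it was between 45854 and 59677 TPM in replicate 1 and between 50129 and 69803 TPM in replicate 2, with medians of 53000 and 54551. In these 2 groups the ranges of the series overlapped.

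Yp2 and Yp3 also had higher medians in replicate 2 than in replicate 1 in both wild-type groups on 15% SY. The medians of Yp2 in replicates 1 and 2 were 5403 and 27037 TPM at 18°C, 16254 and 40737 TPM on 15% SY at 25°C, 22576 and 22429 TPM on 5% SY, and 36057 and 40525 TPM in Clk-Jrk. Those of Yp3 were 4928 and 26137 TPM at 18°C, 15588 and 39726 TPM on 15% SY at 25°C, 19701 and 18589 TPM on 5% SY, and 28396 and 35080 TPM in Clk-Jrk. The mean level of Yp1 was thus highest in Clk-Jrk (54699 ± 6039 TPM, SD, n = 12), then on 15% SY (35438 ± 14530, n = 24) and 5% SY (31810 ± 5823, n = 24) at 25°C, and lowest at 18°C (19586 ± 12898, n = 24). The diets, next to each other in this order, did not differ beyond their spread in Yp1 when the series were pooled, but their order was reversed between the series, with means of 22451 TPM on 15% SY and 28597 TPM on 5% SY in replicate 1, and of 48424 and 35023 TPM in replicate 2.

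**Figure D1:**
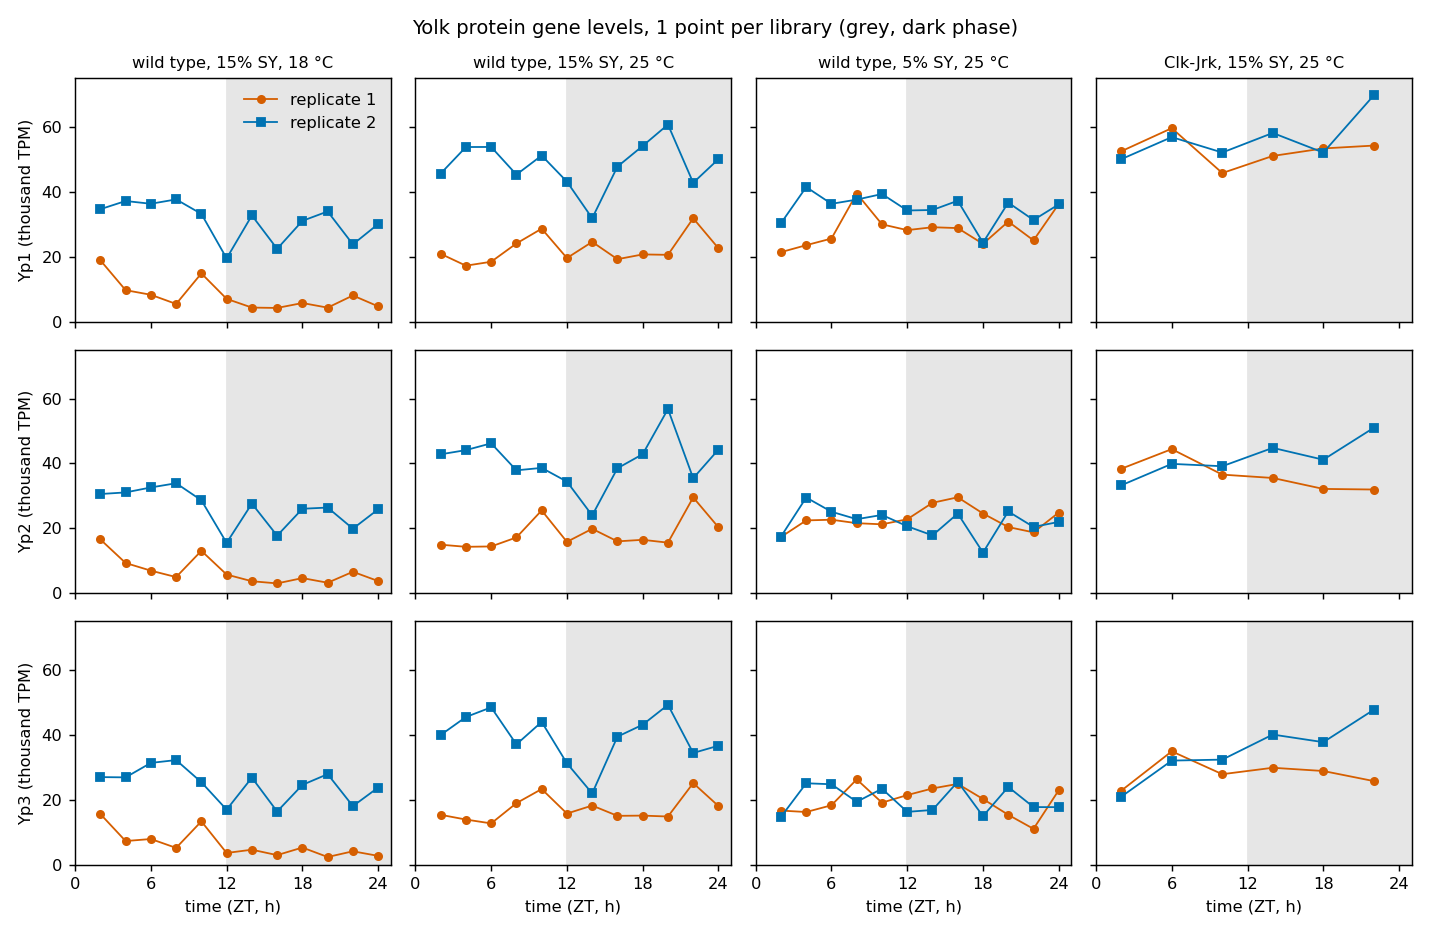
Levels of Yp1, Yp2 and Yp3 (in units of 1000 TPM, 1 point per library) against time (ZT, hours) in the 4 groups, with replicate 1 as circles, replicate 2 as squares and the dark phase in grey. Replicate 2 lies above replicate 1 at all 12 time points of both 15% SY wild-type groups, while the series cross on 5% SY and in Clk-Jrk.

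As a share of all TPM, the 3 genes together made up 2.12% ± 1.29 (SD, n = 12) in replicate 1 and 8.23% ± 1.69 (n = 12) in replicate 2 at 18°C. On 15% SY at 25°C, these shares were 5.80% ± 1.27 and 12.8% ± 2.24 (n = 12 each). On 5% SY, they were close to each other, at 7.12% ± 1.09 and 7.70% ± 1.26 (n = 12 each). Clk-Jrk had the largest share, 11.8% ± 1.07 in replicate 1 and 13.3% ± 2.14 in replicate 2 (n = 6 each). Because TPM sum to a fixed total, a share of this size lowers the values of all other transcripts in the same library.

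The gap between the series was tested in each group with limma on log2(TPM + 1), with time point as a factor and Benjamini-Hochberg adjustment, after it had been seen in the values. At 18°C, the 3 genes were higher in replicate 2 by 2.10 ± 0.18 (Yp1), 2.12 ± 0.19 (Yp2) and 2.20 ± 0.20 (Yp3) on the log2 scale (± SE), with limma adjusted p of at most 3.11e-06, while 15.4% of all features passed in that direction. On 15% SY at 25°C, they were higher by 1.11 ± 0.11, 1.15 ± 0.14 and 1.19 ± 0.13, with limma adjusted p of at most 3.14e-05 and 12.1% of all features passing. At 18°C, they ranked from 49th to 52nd among 6816 features by the size of this gap. On 5% SY, only Yp1 passed, at 0.30 ± 0.08 (limma adjusted p = 0.00392, 8.81% of all features), with Yp2 at -0.08 ± 0.11 and Yp3 at 0.03 ± 0.13. In Clk-Jrk, none of the 3 passed in limma, at 0.09 ± 0.10, 0.18 ± 0.14 and 0.28 ± 0.15, nor did any other feature (0% passing, 377 features at an unadjusted p under 0.05).

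Other tissue markers moved with the series as well. At 18°C, the 12 muscle markers had a median sum of 4589 TPM in replicate 1 and 2732 TPM in replicate 2, the 6 oenocyte markers 51031 and 36850 TPM, and the midgut markers 294 and 54.9 TPM. On 15% SY at 25°C, the muscle markers had the opposite order, 2393 TPM in replicate 1 and 2736 TPM in replicate 2, while the oenocyte markers, at 40798 and 30280 TPM, and the midgut markers, at 81.1 and 29.3 TPM, had the same order as at 18°C. The follicle cell markers at 18°C had a median sum of 25.3 TPM in replicate 1 (up to 5122) and 715 TPM in replicate 2 (up to 5799). On 15% SY at 25°C, the follicle cell order was the opposite, 2316 TPM in replicate 1 and 1344 TPM in replicate 2, although the yolk protein genes were again higher in replicate 2. The part of these tissues in the gap between the series was not tested.

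Over the 8 series of a group and replicate number, the library with the most follicle cell transcripts was the lowest in Yp1 in 3 and the highest in 0. At 18°C in replicate 2, the library with the most follicle cell markers (ZT12, 5799 TPM) had the lowest Yp1 of its series, 19575 TPM, and the one with the fewest (ZT4, 4.84 TPM) had 37243 TPM, the second highest. On 15% SY at 25°C in replicate 1, the library with the most (ZT4, 15039 TPM) likewise had the lowest Yp1, 17322 TPM. At 18°C in replicate 1, the library with the most (ZT10, 5122 TPM) had the second highest Yp1, 14949 TPM, and the one with the fewest (ZT20, 6.97 TPM) had 4397 TPM, 11th of 12. These are single libraries, given as a description.

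**Figure D2:**
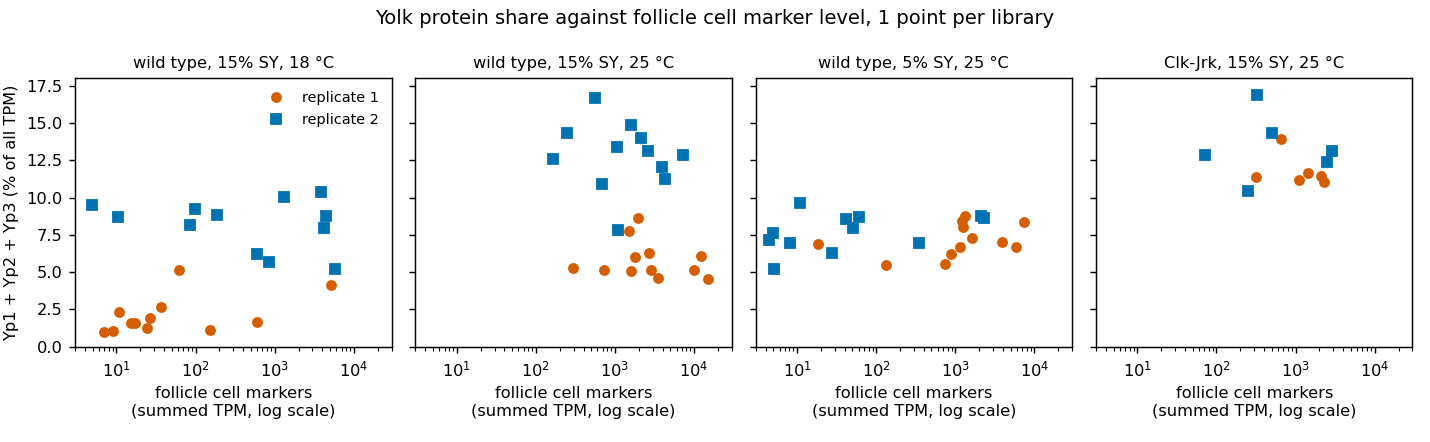
Summed share of Yp1, Yp2 and Yp3 (% of all TPM) against the summed level of 19 follicle cell markers (TPM, log scale), 1 point per library in each of the 4 groups, with replicate 1 as circles and replicate 2 as squares. At 18°C, replicate 2 spans 4.84 to 5799 TPM of follicle cell markers at shares of 5.21% to 10.4%, and the shares of replicate 1 lie between 1.01% and 5.12%.

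The first comparison asked how the yolk protein genes differ between temperatures in wild-type flies on 15% SY. All 3 were lower at 18°C, with differences of -1.14 ± 0.27 (Yp1), -1.11 ± 0.28 (Yp2) and -1.17 ± 0.29 (Yp3) on the log2(TPM + 1) scale (± SE, 24 against 24 libraries) and limma adjusted p of 0.000587, 0.00105 and 0.000975. Of all 7157 features tested, 30.5% were lower at 18°C and the median difference was -0.06.

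Both series gave the same direction. Within replicate 1, the differences were -1.63 ± 0.19, -1.60 ± 0.20 and -1.68 ± 0.22 (limma adjusted p of at most 4.46e-06, with 25.2% of features lower). Within replicate 2, they were -0.65 ± 0.10, -0.63 ± 0.11 and -0.67 ± 0.12 (limma adjusted p of at most 0.000188, with 13.2% of features lower). At the same time point and replicate number, Yp1 at 18°C was below Yp1 at 25°C in 12 of 12 pairs of replicate 1, with a median ratio of 0.267, and in 11 of 12 pairs of replicate 2, with a median ratio of 0.625. The ranges of the 2 temperatures nevertheless overlapped for each gene in each series. The difference was nearer to 0 in replicate 2 than in replicate 1, by 0.98 ± 0.22 (Yp1), 0.97 ± 0.24 (Yp2) and 1.01 ± 0.26 (Yp3), with limma adjusted p of 0.00198, 0.00656 and 0.00917, and 2.07% of features passed in that direction. This contrast is also the gap between replicates at 18°C minus that at 25°C, and was fitted after the values had been seen.

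Leaving out every library with more than 1000 TPM of follicle cell markers kept 18 libraries at 18°C and 6 at 25°C. The differences were then -1.86 ± 0.60 (Yp1), -1.85 ± 0.62 (Yp2) and -1.94 ± 0.65 (Yp3), with limma adjusted p of 0.0446, 0.0495 and 0.0518, so that Yp3 no longer passed. The libraries kept were 11 of replicate 1 and 7 of replicate 2 at 18°C against 2 and 4 at 25°C, so these values also hold part of the gap between the series. When the same fit took the series as a block, the differences were -1.02 ± 0.26, -0.996 ± 0.27 and -1.05 ± 0.31, with limma adjusted p of 0.0125, 0.0197 and 0.0314. This limit was chosen after the data had been seen.

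Genes that act before and after yolk protein transcription were read from lists. Of all features tested, 1659 were higher and 2180 lower at 18°C. All 4 measured genes of tyrosine sulfation, the modification that yolk proteins receive in the Golgi, were lower at 18°C, with a median difference of -0.29. The steepest was Papss, which makes the sulfate donor PAPS, at -0.78 ± 0.12 (14.7 against 25.6 TPM, limma adjusted p = 3.96e-07), followed by sll and Papst2, which carry PAPS into the Golgi, at -0.32 ± 0.05 and -0.27 ± 0.05, and by Tpst, the tyrosylprotein sulfotransferase, at -0.26 ± 0.07. Within replicate 1 alone 4 passed and within replicate 2 alone 3, without Tpst. Of the 7 genes listed for yolk uptake (yl, boca, LRP1, LpR1, LpR2, Chc and shi), 3 were higher and 2 lower. Within replicate 1 alone these counts were 3 and 1, and within replicate 2 alone 1 and 0. The lipoprotein receptor gene LpR1 was higher by 0.83 ± 0.08 (137 against 77.1 TPM, limma adjusted p = 1.06e-11), and yl, which is transcribed in the germline, was at -1.23 ± 0.41 (57.7 against 94.2 TPM, limma adjusted p = 0.0118), and did not pass within replicate 1 or 2 (limma adjusted p = 0.0572 and 0.135). The germline markers, which include yl, moved with it, with a median sum of 260 TPM at 18°C and 491 TPM at 25°C.

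The lists of upstream regulators were mixed at 18°C. Of 6 sex determination genes tested, 1 was higher and 3 lower, the higher being dsx at 0.26 ± 0.11 (17.4 against 14.2 TPM, limma adjusted p = 0.0358). Within replicate 1 alone 1 was higher and 2 lower, and within replicate 2 alone 0 passed, with dsx at 0.19 (limma adjusted p = 0.0883). Without the 20 most abundant features in the total, 0 were higher and 3 lower. Among the 5 transcription factors described for yolk protein or fat body genes, 3 were higher and 2 lower, with Hnf4 at 0.27 ± 0.05 and Aef1, a repressor of fat body enhancers, at -0.44 ± 0.11, and within each series alone 1 was higher and 1 lower. Of 8 ecdysone genes, 1 was higher and 3 lower, and of 7 juvenile hormone genes, 2 were higher and 3 lower. The juvenile hormone receptor genes gce and Met were the 2 that were higher, by 0.62 ± 0.07 and 0.33 ± 0.07. Among 18 nutrient and insulin genes, 3 were higher and 3 lower. Within replicates 1 and 2 alone, the ecdysone genes gave 2 and 1 higher and 0 and 1 lower, the juvenile hormone genes 2 and 2 higher and 4 and 1 lower, and the nutrient and insulin genes 2 and 1 higher and 1 and 1 lower, where 8 juvenile hormone genes were tested in replicate 1 and 7 ecdysone genes in replicate 2. Of 21 genes of the secretory pathway, 1 was higher and 3 lower, with 13 lower within replicate 1 alone and 0 within replicate 2 alone. Among 11 other secreted or carrier proteins of the fat body, 2 were higher and 3 lower, with apolpp, the precursor of the main lipoprotein of the haemolymph, at -0.92 ± 0.13.

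**Figure D3:**
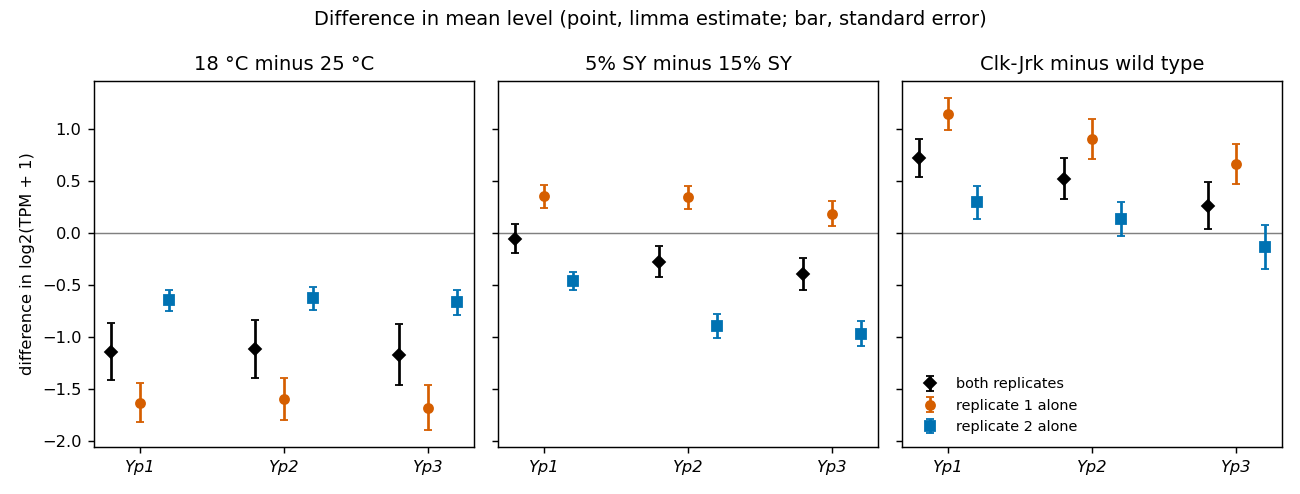
Difference in mean level of Yp1, Yp2 and Yp3 in log2(TPM + 1) for 18°C minus 25°C, 5% SY minus 15% SY and Clk-Jrk minus wild type (points, limma estimates over both replicates and within each; bars, SE). The estimates for 18°C are all below 0, those for diet have opposite signs in replicates 1 and 2, and those for Clk-Jrk are larger within replicate 1 than within replicate 2.

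The second comparison asked how diet bears on the yolk protein genes at 25°C. Over both series, the differences of 5% SY from 15% SY were -0.06 ± 0.14 (Yp1), -0.28 ± 0.15 (Yp2) and -0.39 ± 0.15 (Yp3), with limma adjusted p of 0.777, 0.142 and 0.0463. Yp3 alone passed, where 25.6% of 7000 features were lower and the median difference of all features was -0.11. Rescaling each library by its median of ratios brought that median to -0.0032, changed all calls from 437 higher and 1793 lower to 1001 and 1485, took Yp3 to -0.28 (limma adjusted p = 0.23) and turned Yp1 to 0.058.

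The 2 series gave opposite directions. Within replicate 2, all 3 genes were lower on 5% SY, at -0.46 ± 0.08 (Yp1), -0.89 ± 0.11 (Yp2) and -0.97 ± 0.12 (Yp3), with limma adjusted p of at most 0.000408, beside 44.7% of features lower. Yp2 and Yp3 were below 15% SY at all 12 time points of that series, with median ratios of 0.589 and 0.519. Within replicate 1, the differences were 0.35 ± 0.11, 0.34 ± 0.11 and 0.18 ± 0.12, with limma adjusted p of 0.183, 0.204 and 0.415. Yp1 was above 15% SY at 11 of 12 time points of replicate 1, with a median ratio of 1.38. In replicate 1, limma called only 2 of 7301 features in all.

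The difference between the series was itself past the threshold for all 3 genes. The difference within replicate 2 minus that within replicate 1 was -0.81 ± 0.14 (Yp1), -1.23 ± 0.17 (Yp2) and -1.15 ± 0.18 (Yp3), with limma adjusted p of 0.000255, 1.38e-05 and 7.53e-05, where 8.77% of features passed in that direction. Follicle cell markers had median sums of 1251 TPM in replicate 1 and 34.8 TPM in replicate 2 on 5% SY. Their part in the difference was not tested. Without libraries of more than 1000 TPM of these markers, which left 14 on 5% SY and 6 on 15% SY, the differences were -0.42 ± 0.24, -0.75 ± 0.25 and -0.91 ± 0.25, each with a limma adjusted p of 0.903, and no feature was called. These libraries were 4 of replicate 1 and 10 of replicate 2 on 5% SY against 2 and 4 on 15% SY, and with the replicate number as a block the differences were -0.41 ± 0.14, -0.75 ± 0.22 and -0.90 ± 0.20 (limma adjusted p = 0.568, 0.568 and 0.222).

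Over both series, 1793 of 7000 features (25.6%) were lower on 5% SY and 437 were higher. Among the lists, 0 of 4 sulfation genes, 3 of 8 ecdysone genes and 3 of 18 nutrient and insulin genes were lower. So were 2 of 7 genes listed for yolk uptake (yl and Chc), 1 of 21 secretory genes and 1 of 6 juvenile hormone genes. No gene of these lists was higher. Scaled by the median of ratios, 1 ecdysone, 2 uptake, 1 nutrient, 1 secretory and 1 juvenile hormone gene were higher on 5% SY, and fit, at -0.59, no longer passed (limma adjusted p = 0.0602). Of the 6 sex determination genes, 1 was higher and none lower, with dsx at 0.08 ± 0.11 (limma adjusted p = 0.576). Of the 5 transcription factors, 1 was higher and 2 lower. Within replicate 2 alone, 4 of 4 sulfation genes and 11 of 18 nutrient and insulin genes were lower, beside the 44.7% of all features that were lower in that series, while within replicate 1 alone none of any list passed. The female fat body gene fit, which encodes a secreted satiety peptide, was at -0.70 ± 0.26 over both series (limma adjusted p = 0.0375), at -1.78 within replicate 2 and at 0.38 within replicate 1 (limma adjusted p = 0.000103 and 0.462). It was 1 of 3 genes of the other fat body proteins that were lower, with the larval storage protein genes Lsp2, at -2.05 ± 0.63, and Lsp1beta, at -1.10 ± 0.38. These genes also had opposite signs in the series, with Lsp2 at 1.07 within replicate 1 and -5.17 within replicate 2 (limma adjusted p = 0.384 and 2.49e-06) and Lsp1beta at 0.35 and -2.55 (limma adjusted p = 0.646 and 0.000452). Yolkless (yl) was at -1.58 ± 0.45 (44.2 against 94.2 TPM, limma adjusted p = 0.0123), at -0.45 within replicate 1 and -2.72 within replicate 2 (limma adjusted p = 0.642 and 0.00118), and the germline markers had median sums of 325 and 491 TPM on 5% and 15% SY.

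The third comparison asked how the Clk-Jrk allele bears on the yolk protein genes, over the 6 time points that both genotypes share. Yp1 was higher in Clk-Jrk by 0.72 ± 0.18 and Yp2 by 0.52 ± 0.20 (12 against 12 libraries), with limma adjusted p of 0.00329 and 0.0371, and Yp3 was at 0.26 ± 0.22 (limma adjusted p = 0.333). Of 7093 features, 10.2% were higher in Clk-Jrk, and the median difference of all features was -0.22. Scaled by the median of ratios, the median was 0.02, all calls changed from 725 higher and 2579 lower to 1741 and 1235, and the differences were 0.98 ± 0.22, 0.77 ± 0.23 and 0.52 ± 0.26 (limma adjusted p = 0.00127, 0.0115 and 0.117).

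The size of the difference again depended on the replicate number. Deviations of same-numbered libraries of the 2 genotypes correlated at -0.17 on average, and were above 0.1 at 1 of 6 time points. Between the replicates of Clk-Jrk itself, 0 of 6437 features were called. The replicate numbers of the 2 genotypes were therefore not shown to mark the same series. Within replicate 1, Clk-Jrk was higher by 1.14 ± 0.15 (Yp1), 0.90 ± 0.19 (Yp2) and 0.66 ± 0.19 (Yp3), with limma adjusted p of 0.0023, 0.0119 and 0.0355, beside 5.74% of features higher. In replicate 1 of all 18 libraries at 25°C on 15% SY, the lowest Clk-Jrk values of Yp1 (45854 TPM) and Yp2 (31984 TPM) were above the highest wild-type ones (31923 and 29553 TPM), and those of Yp3 overlapped. The share of all features that separated in this way was not counted. Within replicate 2, the differences were 0.29 ± 0.16, 0.13 ± 0.16 and -0.14 ± 0.21 (limma adjusted p = 0.175, 0.505 and 0.611), and the ranges overlapped for all 3 genes. The difference within replicate 2 minus that within replicate 1 was -0.85 ± 0.21 for Yp1 (limma adjusted p = 0.0287, where 2.83% of features passed in that direction), while Yp2, at -0.77 ± 0.26, and Yp3, at -0.80 ± 0.30, did not pass (0.0937 and 0.118). Over the shared time points, it is also the gap between replicates in Clk-Jrk minus that in wild type, and was fitted after the values had been seen.

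Against all 24 wild-type libraries at 25°C, the differences were 0.74 ± 0.19, 0.54 ± 0.20 and 0.28 ± 0.21, close to those over matched time points. The level listed for asRNA:CR45601, whose reads cannot be told apart from those of Yp1 in the bases they share, differed by 0.64 ± 0.22 in Clk-Jrk (limma adjusted p = 0.0257), by 1.31 within replicate 1 and by -0.029 within replicate 2 (limma adjusted p = 0.00114 and 0.887). At 18°C it was at -1.22 ± 0.25 (limma adjusted p = 8.09e-05), and at -1.35 and -1.09 within replicates 1 and 2.

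Among the lists, the ecdysone genes stood lower in Clk-Jrk, all 8 of those tested passing, with a median difference of -0.90 beside -0.22 for all features, of which 36.4% were lower. Within replicate 1 alone 3 of the 8 were lower, beside 18.6% of all features, and within replicate 2 alone 6, beside 21.1%. EcR, the ecdysone receptor, was at -1.20 ± 0.15 (2.37 against 6.37 TPM, limma adjusted p = 4.68e-06), and at -1.03 and -1.37 within replicates 1 and 2. Eip75B, an early ecdysone-induced receptor gene, was at -1.16 ± 0.17, and Hr4 was at most 0.88 TPM in any library and was not tested. All 5 transcription factors were lower, with svp at -0.73 ± 0.13, ftz-f1 at -1.28 ± 0.24 and Aef1 at -0.96 ± 0.19. Of 6 sex determination genes, 4 were lower, among them dsx at -0.51 ± 0.16 (9.83 against 14.2 TPM, limma adjusted p = 0.017), and 10 of 18 nutrient and insulin genes were lower, with none higher in either list. Within replicates 1 and 2 alone, the lower genes were 3 and 4 transcription factors, 2 and 1 sex determination genes and 5 and 7 nutrient and insulin genes, and dsx passed in neither series (limma adjusted p = 0.0781 and 0.258). Scaled by the median of ratios, 7 of the 8 ecdysone genes, 3 of the 5 transcription factors, 2 of the 6 sex determination genes and 7 of the 18 nutrient and insulin genes were lower, 2 nutrient and insulin genes were higher, and dsx, at -0.27, no longer passed (limma adjusted p = 0.215).

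Of all features, 10.2% were higher in Clk-Jrk and 36.4% lower. Among the other fat body proteins, 5 of 11 were higher and none lower. Within replicates 1 and 2 alone, 4 and 5 were higher, beside 417 of 7271 and 553 of 7166 of all features. The fit transcript rose by 1.90 ± 0.28 (750 against 204 TPM, limma adjusted p = 2.4e-05) and Lsp2 by 4.69 ± 0.76 (958 against 82.3 TPM, limma adjusted p = 8.07e-05). Of 21 secretory genes, 4 were higher and 2 lower, the disulfide isomerase gene Pdi rising by 0.45 ± 0.08, and of 4 sulfation genes 2 were higher, Papst2 by 0.35 ± 0.05 and sll by 0.38 ± 0.06. Among 7 juvenile hormone genes, 2 were higher and 4 lower, with the hormone epoxide hydrolase genes Jheh1 and Jheh2 higher by 2.44 ± 0.25 and 1.36 ± 0.09 and Kr-h1, a target of the hormone, at -0.71 ± 0.14. Of 7 genes listed for yolk uptake, 1 was higher and 1 lower. The yl transcript was at -0.76 ± 0.52 (limma adjusted p = 0.228), at 0.20 within replicate 1 and -1.72 within replicate 2 (limma adjusted p = 0.875 and 0.0343). The germline markers had median sums of 267 TPM in Clk-Jrk and 491 TPM in wild type. Within replicates 1 and 2 alone, the secretory genes gave 6 and 2 higher and 1 and 1 lower, and the juvenile hormone genes 2 and 2 higher and 0 and 2 lower. Scaled by the median of ratios, the median difference of the secretory genes turned from -0.05 to 0.20, with 9 higher and 0 lower, 2 sulfation genes and 6 of the other fat body proteins were higher, and 2 juvenile hormone genes were higher and 2 lower.

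Without a term for the series, no 24 hour rhythm of the yolk protein genes passed the F-test of a cosine fit to TPM at a p under 0.1 in any group, while 29.9% of 7242 features did at 18°C, 18.9% on 15% SY at 25°C, 9.71% on 5% SY and 17% in Clk-Jrk. At 18°C, the fitted amplitude of Yp1 was 4053 ± 3795 TPM (SE) around a mean of 19586 TPM, with a peak near ZT4.7 and p = 0.574 over 24 libraries. The p-values of Yp2 and Yp3 at 18°C were 0.432 and 0.527. This fit leaves the gap between the series in its error, and with the replicate number as a block the p-values at 18°C were 0.0239 (Yp1), 0.00794 (Yp2) and 0.0265 (Yp3), all under 0.1, as were those of 41.1% of all features. The SE of the amplitude of Yp1 was then 1347 TPM. At 18°C within replicate 1 alone none of the 3 passed, and within replicate 2 alone Yp2 did (p = 0.0732). In the other groups, the 9 p-values were between 0.222 (Yp3 on 5% SY) and 0.978 (Yp2 in Clk-Jrk), and the fitted amplitudes between 1.39% and 11.7% of the mean.

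At 18°C, the mean of both replicates was highest at ZT2 for all 3 genes, at 26855 TPM for Yp1, and lowest at ZT12 for Yp1 (13340 TPM) and ZT16 for Yp2 and Yp3 (10418 and 9694 TPM). The series differed here, with all 3 highest at ZT2 in replicate 1 and at ZT8 in replicate 2. On 15% SY at 25°C, the means of all 3 were lowest at ZT14, at 28297 (Yp1), 21950 (Yp2) and 20119 TPM (Yp3). Replicate 2 was lowest at ZT14 for all 3, while replicate 1 was lowest at ZT4 (Yp1 and Yp2) or ZT6 (Yp3). For Yp1, the ZT14 libraries held 24652 TPM in replicate 1 and 31942 TPM in replicate 2. The highest means there were at ZT20 for Yp1 and Yp2 and ZT10 for Yp3, while all 3 were highest at ZT22 in replicate 1 and at ZT20 in replicate 2. On 5% SY and in Clk-Jrk the highest and lowest time points varied from gene to gene.

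The rhythm did not differ detectably between groups. In limma, the joint test of the cosine and sine terms gave adjusted p of 0.648 to 0.74 for temperature, where 1.05% of features passed. It gave 0.958 to 0.964 for diet, where 0% passed, with 99 of 7000 features at an unadjusted p under 0.05. It gave 0.81 to 0.986 for genotype, where 0.0564% passed. These fits leave the gap between the series in their error. With the replicate number as a block, the limma adjusted p for temperature were 0.233 (Yp1), 0.147 (Yp2) and 0.237 (Yp3). In that fit 380 of 7157 features passed.

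The spread of the yolk protein genes between libraries was widest at 18°C when the series were pooled. The coefficient of variation of Yp1 was 65.9% at 18°C, 41% on 15% SY at 25°C, 18.3% on 5% SY and 11% in Clk-Jrk. Within replicate 1, it was 57.3%, 19.2%, 18.4% and 8.51% in the same order, and within replicate 2 19.3%, 15.3%, 13% and 12.7%. Yp3 differed from this order, with 25.7% in Clk-Jrk and 21.1% at 18°C within replicate 2. Pooled, Yp3 had 67.8% at 18°C, 45.1% on 15% SY at 25°C, 21.3% on 5% SY and 23.8% in Clk-Jrk. In limma on the absolute deviation of log2(TPM + 1) from the group median, the deviation on 5% SY was smaller than on 15% SY by an estimate of -0.33 ± 0.08 (Yp1), -0.40 ± 0.08 (Yp2) and -0.34 ± 0.09 (Yp3), with adjusted p of 0.0537, 0.0114 and 0.0537. Yp2 was the only feature of 7000 to pass (0.0143%), with 1008 at an unadjusted p under 0.05. Within the replicate series, these differences were between -0.074 and 0.05 for the 3 genes and none passed. For temperature, the differences in spread were 0.49 ± 0.17, 0.47 ± 0.17 and 0.49 ± 0.19 (limma adjusted p = 0.143, 0.188 and 0.2), and for genotype -0.37 ± 0.10, -0.36 ± 0.11 and -0.31 ± 0.13 (limma adjusted p = 0.144, 0.153 and 0.342).

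The 3 genes moved closely together from library to library in wild-type flies on 15% SY. Because the series formed separate clusters, correlations of log2(TPM + 1) were taken within each group and replicate, which gave 24 relations. In the 4 series on 15% SY at 18°C and 25°C (n = 12 each), the 12 values of Pearson's r were between 0.90 and 0.99 and those of Spearman's rho between 0.83 and 0.99. Their permutation p, adjusted over the 24 relations, were at most 0.000309 for r and 0.00253 for rho, where 1e-05 was the smallest unadjusted p that 100000 permutations can give. Without the 2 libraries farthest from the median of the first gene, r was between 0.71 and 0.98. These libraries share their TPM totals and tissue makeup as well.

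On 5% SY in replicate 1, r was 0.30 for Yp1 with Yp2 (permutation p = 0.336, adjusted 0.384; rho 0.22, p = 0.487), 0.57 for Yp1 with Yp3 (p = 0.0535, adjusted 0.0676; rho 0.52, p = 0.0855) and 0.70 for Yp2 with Yp3 (p = 0.012, adjusted 0.0169; rho 0.71, p = 0.0129). In replicate 2 of that diet, r was 0.94, 0.76 and 0.85 for the same pairs, with adjusted permutation p of at most 0.000848, and rho 0.85, 0.82 and 0.91, with at most 0.00253. In Clk-Jrk, with n = 6 per series and exact permutation tests, r was between 0.36 and 0.44 in replicate 1 (exact p from 0.369 to 0.482) and between 0.77 and 0.97 in replicate 2 (exact p from 0.00278 to 0.0917, adjusted 0.00417 to 0.11). The rho values were 0.03 to 0.26 and 0.77 to 0.94, with exact p of at least 0.658 and at least 0.0167. In replicate 1 of Clk-Jrk, the sign of all 3 turned negative without the 2 farthest libraries, so that the values there rested on those libraries. Whether the correlations differ between groups was not tested.

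The ratio of the genes to each other varied between groups as well, as a description chosen after the values were seen. Yp3 was at a median of 0.79 of Yp1 at 18°C and 0.797 on 15% SY at 25°C, but at 0.634 on 5% SY and 0.585 in Clk-Jrk. Within replicates 1 and 2, these medians were 0.701 and 0.580 on 5% SY and 0.563 and 0.653 in Clk-Jrk. They were 0.786 and 0.79 at 18°C, and 0.783 and 0.814 on 15% SY at 25°C. In Clk-Jrk, the ratio was between 0.418 and 0.724 over the 12 libraries, and on 15% SY at 25°C between 0.688 and 0.9 over 24. Yp2 was at a median of 0.836 of Yp1 at 18°C, 0.813 on 15% SY at 25°C and 0.73 in Clk-Jrk, and on 5% SY at 0.808 in replicate 1 and 0.611 in replicate 2. In replicate 2 of 5% SY, no library exceeded 0.711, while on 15% SY at 25°C none was below 0.713. Since Yp1 shares reads with asRNA:CR45601, the ratio of asRNA:CR45601 to Yp1 is given beside these. Its medians were 0.236 at 18°C, 0.286 on 15% SY at 25°C, 0.195 on 5% SY and 0.264 in Clk-Jrk, and its part in the other ratios was not tested.

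**Figure D4:**
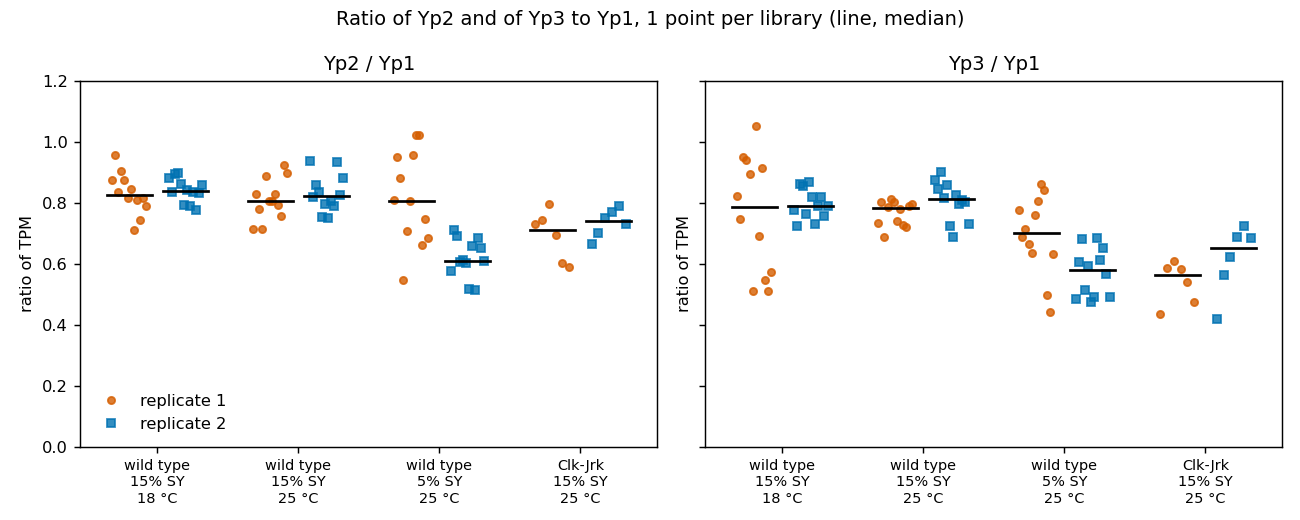
Ratio of Yp2 (left) and of Yp3 (right) to Yp1 in TPM, 1 point per library in the 4 groups, with replicate 1 as circles, replicate 2 as squares and medians as lines. Lines are drawn for each replicate. Over both replicates, the Yp3 to Yp1 ratio has a median of 0.797 on 15% SY at 25°C and 0.585 in Clk-Jrk. The median Yp2 to Yp1 ratio on 5% SY is 0.808 in replicate 1 and 0.611 in replicate 2.

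The features whose deviations from their group means were most like those of the yolk protein genes were found over the 84 libraries and 7239 other features. They were Obp99a, an odorant-binding protein gene (r = 0.86, mean level 814 TPM), Mtpalpha (0.85) and Mtpbeta (0.82), which encode the mitochondrial trifunctional protein of fatty acid oxidation, Arc42 (0.84) and arg, which encodes arginase (0.84). These values hold the gap between the series. With the mean of each group and replicate subtracted, the 5 most like were CG3246 (0.69), lncRNA:CR43411 (0.68), Elal (0.67), Mthfs (0.67) and Obp99a (0.65), and Obp99a was the only feature in both sets.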

How the data were processed

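Poly(A) RNA of abdominal fat body was sequenced as single-end reads (TruSeq libraries, HiSeq 2000). The authors trimmed reads with Atropos, aligned them with STAR 2.7.10a and quantified them with RSEM 1.3.1 against Ensembl release 107, without regard to strand. The deposited values are TPM, given by the authors to 2 decimals. TPM keep no read counts, so depth and counting error are unknown, errors come from the spread of libraries, and how RSEM divided reads between similar yolk protein genes was not analysed here. The authors' annotation is BDGP6.32, and positions come from Ensembl release 115 of BDGP6. Sequences are not shown here.

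Features with a median TPM above 5 in at least 1 group compared were fitted with limma 3.58.1 (R 4.3.3) on log2(TPM + 1), with group, a 24 hour cosine and sine and their interaction, and p-values were adjusted over all features (Benjamini-Hochberg, threshold 0.05). A fold change on this scale understates that of low genes. Rhythm was tested per group by an F-test on TPM (p under 0.1, the limit the study set for each of its experiments, whose further criteria were not applied), and spread by limma on absolute deviations from the group median. Correlations used 100000 permutations, or exact enumeration with 6 libraries. The fits were tested on simulated data without a gap between the series, so these tests do not cover its effect.

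The members and lists were chosen with earlier results of these data known. The text names the 3 members, genes of each list from among the up to 4 with the smallest adjusted p in a comparison, dsx, yl, fit and Hr4, and the 5 features most like the members. Alternatives were a pseudocount of 0.1, no filter, median-of-ratios scaling, a total without the 20 most abundant features, a replicate block, time point as a factor, all wild-type libraries at 25°C, robust variances, a light-dark step, and each replicate left out. Leaving out libraries high in follicle cell markers, with and without a replicate block, the gaps between the replicate series, the ratios and the antisense gene were added after seeing the data.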

Additional observations from a re-analysis of the deposited data

How the results depend on the processing

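Of 96 alternative fits of mean level, 78 kept direction and side of the threshold. Lower levels at 18°C changed only without libraries high in follicle cell markers, where Yp3, at -1.94, no longer passed. For diet, Yp3 lost its call with no filter or time point as a factor (-0.39 each), with median-of-ratios scaling (-0.28) and without libraries high in follicle cell markers (-0.91, or -0.90 with a replicate block), and Yp1 turned to 0.058 with median-of-ratios scaling. Leaving out 1 replicate moved the diet differences from -0.46 to 0.35 (Yp1), -0.89 to 0.34 (Yp2) and -0.97 to 0.18 (Yp3). For Clk-Jrk, Yp1 and Yp2 lost their calls with no filter (0.72 and 0.52), and leaving out 1 replicate moved the differences from 0.29 to 1.14 (Yp1), 0.13 to 0.90 (Yp2) and -0.14 to 0.66 (Yp3). Clk-Jrk could not be fitted without libraries high in follicle cell markers, since 1 matched wild-type library was left. For diet, 2230 features were called over both series, 3858 without replicate 1 and 2 without replicate 2. For temperature, 3839 were called, 2268 without replicate 1 and 978 without libraries high in follicle cell markers (950 with a replicate block). For genotype, 3304 were called, 2067 without replicate 1 and 1767 without replicate 2.

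Smaller spread on 5% SY also passed for Yp1 and Yp3 with a pseudocount of 0.1 or no filter (-0.33 and -0.34), and for Yp3 with median-of-ratios scaling (-0.41). Leaving out 1 replicate moved it from -0.037 to 0.00225 (Yp1), -0.074 to 0.024 (Yp2) and 0.0397 to 0.0501 (Yp3), and for Yp3 in Clk-Jrk from -0.16 to 0.021. Features called for spread went from 51 to between 0 and 194 for temperature, from 1 to between 0 and 84 for diet and from 0 to at most 33 for genotype. All 60 alternatives for a difference in rhythm left the 3 genes uncalled, and features called for temperature went from 75 to between 0 and 380, and for genotype from 4 to as few as 0.

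Deviations of same-numbered libraries correlated at 0.28 on average (-0.16 to 0.59) for temperature, and were above 0.1 at 10 of 12 time points. For diet the average was 0.27, above 0.1 at 11 of 12, and for genotype -0.17, above 0.1 at 1 of 6. The main fits did not use the replicate number as a block. With the replicate number as a block, 18°C gave p of 0.0239 (Yp1), 0.00794 (Yp2) and 0.0265 (Yp3) for a rhythm, beside 2976 of 7242 features, and the spread differences on 5% SY were -0.025 (Yp2, no longer called) and 0.045 (Yp3). With all libraries, the block changed no call of mean level, with a diet adjusted p of 0.0116 for Yp3. Other rhythm p under 0.1 were 0.0732 for Yp2 at 18°C without replicate 1 (0.162 without replicate 2), 0.0754 for Yp1 in Clk-Jrk with a light-dark step and 0.0854 for Yp2 in Clk-Jrk without replicate 2 (0.565 without replicate 1). Without the 20 most abundant features in the total, the share of the 3 genes was 15.8% in Clk-Jrk and 9.29% on 5% SY. The cause of these changes was not tested.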
